A study of Mus musculus with 6 samples.

Results

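The report concerns 10 genes of the integrated stress response, measured by RNA sequencing in mouse tumours: the transcription factor genes Atf4, Atf5, Atf3, Ddit3 (which encodes CHOP), Cebpb and Cebpg, and the downstream genes Trib3, Nupr1, Chac1 and Asns. They are 10 of the 21671 named genes in the count table, and all 10 were present and abundant enough to be tested. These genes were chosen by name, with their differences between the groups already known from the same libraries. Their values in this comparison are therefore a description, and the counts of calls among them support nothing.

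In the integrated stress response, kinases that sense missing amino acids, unfolded protein in the endoplasmic reticulum, haem shortage or viral RNA phosphorylate the initiation factor eIF2alpha. General translation then slows, while upstream open reading frames let the Atf4 messenger be translated more, so the level of Atf4 RNA is not the level of ATF4 protein. ATF4 pairs with C/EBP proteins and binds C/EBP-ATF response elements (CAREs) near genes for amino acid supply, tRNA charging and redox balance. CHOP, itself induced by ATF4, takes part in the switch towards cell death when the stress lasts.

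The doxycycline libraries came from subcutaneous tumours of CD1 nude ho mice taken 4 h after doxycycline (genotype label ST18 knockdown, 3 libraries), and the untreated libraries from tumours without the drug (genotype label wild type, 3 libraries). In both groups the tumours arose from injected transformed hepatoblasts, and the protocol describes these cells as carrying TtRMPVIR shST18, in which a short hairpin RNA against St18 is under doxycycline control. The drug was given by gavage as 200 mg/ml in 300 µl. The labels list no doxycycline-treated tumours lacking the hairpin, and effects of the drug, of its administration and of the hairpin cannot be told apart. The labels do not say how old the mice were, whether the cells were 1 clone or whether tumours were pooled. Nor do the labels say that each library came from its own animal, so p-values measure the spread between these libraries.

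St18, the target of the hairpin, had 34, 12 and 61 counts in doxycycline replicates 1, 2 and 3, against 12, 23 and 19 counts in untreated replicates 1, 2 and 3. Its log2 fold change was 1.03 (SE 0.55, edgeR adjusted p = 0.298), and 1.45 without doxycycline replicate 2 (adjusted p = 0.0386), so the libraries labelled ST18 knockdown did not show less of the target RNA. Library totals ran from 12090309 to 16169043 counts. The hepatocyte markers Alb and Hnf4a were near 0, at 0.0458 and 0.450 mean CPM (counts scaled to a common library size with TMM) in doxycycline libraries. Of 16 listed liver lineage markers, 10 were abundant enough to be tested. Among these, Krt8 stood at 61.1, Krt18 at 60.4 and Sox9 at 29.3 mean CPM in doxycycline libraries. In untreated libraries they stood at 43.5, 67.3 and 31.2 mean CPM. The Gpc3 gene, high in hepatoblasts, was the 1 of 10 tested liver lineage markers that was called, and it was higher (log2 fold change 3.37, SE 0.63). Its level was low, at 6.54, 1.37 and 5.71 CPM in doxycycline replicates 1, 2 and 3. In untreated replicates 1, 2 and 3 it was near 0, at 0.378, 0.503 and 0.405 CPM. Skeletal muscle markers summed to 1528, 3024 and 447 CPM in doxycycline replicates 1, 2 and 3, against 95.8, 237 and 111 CPM in untreated replicates 1, 2 and 3. Of these sums, which are not scaled for length, Ttn alone gave 935, 2041 and 297 CPM in doxycycline libraries. In untreated libraries it gave 44.6, 157 and 68.1 CPM. Ttn was not called, and 9 of the 14 tested muscle markers were called higher. Calls in the higher direction were also made for 3 of 12 fibroblast, 2 of 10 macrophage and 2 of 7 endothelial markers. Log2 fold changes were negative for 2 of the fibroblast and 3 of the macrophage markers. Over all tested genes, 2.84% were called higher and 2.18% lower. Only 11, 27 or 14 of all genes were called higher without untreated replicate 1, 2 or 3. In the lower direction there was 1 call among 7 neutrophil markers, which summed to 103, 84.3 and 128 CPM in doxycycline libraries, against 180, 150 and 206 CPM in untreated libraries. None of 3 lymphocyte markers passed. These shifts stand beside every result below, and their part in it was not tested. In such bulk tissue, fewer cells of a type and less RNA per cell cannot be told apart.

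All 10 genes had a negative log2 fold change, which means a lower level after doxycycline. In the edgeR quasi-likelihood fit over 14809 genes, 6 of the 10 were lower at an adjusted p under 0.05, where 2.18% of all tested genes were called lower, and none was higher, where 2.84% of all were. The 6 were Atf5, Ddit3, Cebpb, Trib3, Chac1 and Asns, with adjusted p from 0.00546 to 0.0418. Adjusted p ran from 0.0540 to 0.228 for Atf3, Atf4, Cebpg and Nupr1. The median log2 fold change was -0.97 over the 10 genes and 0.01 over all genes tested. In 9 of the 10, every doxycycline library lay below every untreated library. Such separation was found in the lower direction for 14.4% of all tested genes and in the higher direction for 15.2%. The exception was Nupr1. Since this contrast chose the genes, nothing is read from these counts. They also hung on the untreated libraries: without untreated replicate 1, 2 or 3, the number called lower was 0, 2 (Atf5 and Ddit3) or 1 (Atf5). Without doxycycline replicate 3 it was 3 (Atf5, Ddit3 and Trib3).

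**Figure D1:**
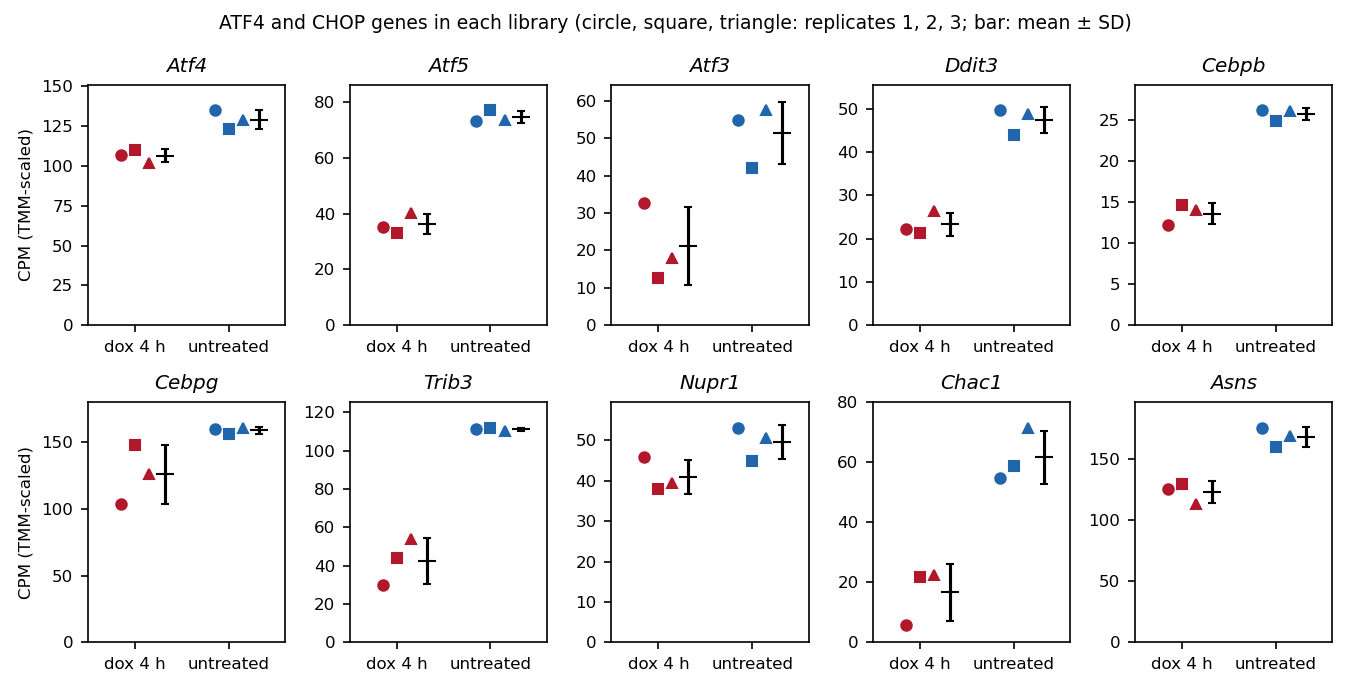
Level of each gene (vertical axis, CPM scaled by TMM, from 0) in the 3 doxycycline libraries (red, left) and the 3 untreated libraries (blue, right), with the mean and SD beside the points. The doxycycline points lie below the untreated points without overlap in 9 of the 10 panels, and in Nupr1 the groups overlap.

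Among the transcription factors, Atf4 had the highest level per length and one of the smallest differences. Atf4, the central factor of the response, had 107, 110 and 102 CPM in doxycycline replicates 1, 2 and 3, against 135, 123 and 129 CPM in untreated replicates 1, 2 and 3. The groups did not overlap, and the highest doxycycline library was 10.3% below the lowest untreated one. Its log2 fold change was -0.28 (SE 0.08, 95% interval -0.45 to -0.10), short of the threshold over all genes. It passed by DESeq2 (adjusted p = 0.0446) and without doxycycline replicate 2 (edgeR adjusted p = 0.0331). Atf5, a close relative of Atf4 whose messenger is also controlled by upstream reading frames, fell to 35.2, 33.2 and 40.2 CPM in doxycycline replicates 1, 2 and 3, against 73.4, 77.1 and 73.6 CPM in untreated replicates 1, 2 and 3. Here the gap between the groups was 45.2% of the lowest untreated value, and the log2 fold change was -1.04 (SE 0.11). Atf4 stood at 82.6% and Atf5 at 48.5% of the untreated level, a contrast that was not tested.

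Ddit3 and Cebpb, which encode partners that can dimerise with each other, both fell. Ddit3 had 22.3, 21.2 and 26.3 CPM in doxycycline replicates 1, 2 and 3, against 49.6, 43.9 and 48.7 CPM in untreated replicates 1, 2 and 3. Its log2 fold change was -1.03 (SE 0.13). Both groups were tight, with coefficients of variation of 11.6% after doxycycline and 6.47% in untreated libraries. Cebpb, a C/EBP factor also known from acute-phase and inflammatory signalling, had 12.2, 14.6 and 14.0 CPM in doxycycline replicates 1, 2 and 3, against 26.2, 24.9 and 26.1 CPM in untreated replicates 1, 2 and 3. The log2 fold change of Cebpb was -0.91 (SE 0.16). Its transcript has a GC content of 67.2%, and with offsets for GC content and length the value was -0.61 (adjusted p = 0.0662), so the call was lost. It was also lost without doxycycline replicate 3 (adjusted p = 0.0589) and with the replicate number as a block (adjusted p = 0.0639).

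Cebpg, which encodes a short C/EBP protein that pairs with ATF4, varied among the doxycycline libraries. It had 104, 148 and 126 CPM in doxycycline replicates 1, 2 and 3, against 160, 156 and 161 CPM in untreated replicates 1, 2 and 3. Doxycycline replicate 2 was only 4.95% below the lowest untreated library. The log2 fold change was -0.33 (SE 0.12) and did not pass. It was -0.47 without doxycycline replicate 2 (edgeR adjusted p = 0.0110). Atf3, a stress-induced factor of the same family that mostly represses, was the least uniform of the 6 factors. It stood at 32.8, 12.5 and 18.1 CPM in doxycycline replicates 1, 2 and 3, against 55.0, 42.0 and 57.5 CPM in untreated replicates 1, 2 and 3. Its lowest doxycycline library was replicate 2 and its highest replicate 1, a span of 2.62 times. Atf3 had a log2 fold change of -1.29 (SE 0.31) that missed the threshold (edgeR adjusted p = 0.0540). It passed without doxycycline replicate 1 (-1.75, adjusted p = 0.0187) and without doxycycline replicate 2 (-1.03, adjusted p = 0.0334). It also passed by DESeq2 (adjusted p = 3.73e-04), by limma-voom (adjusted p = 0.0463) and with the replicate block (adjusted p = 0.0325).

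Chac1 and Trib3 had the largest differences of the downstream genes. Across all 10, Atf3 passed Trib3 by limma-voom (-1.42 against -1.39), with the GC and length offsets (-1.32 against -1.27) and without untreated replicate 2 (-1.44 against -1.39). Without doxycycline replicate 1, Atf3 at -1.75 passed both Chac1 at -1.48 and Trib3 at -1.19. Chac1, an enzyme that degrades glutathione, fell to 5.70, 21.8 and 22.6 CPM in doxycycline replicates 1, 2 and 3, against 54.8, 58.7 and 71.6 CPM in untreated replicates 1, 2 and 3. Doxycycline replicate 1 held 68 reads of Chac1, against 317 and 361 in replicates 2 and 3, so the drop was deepest in that library. The log2 fold change of -1.87 (SE 0.41, 95% interval -2.82 to -0.93) corresponds to 27.3% of the untreated level. Without doxycycline replicate 1 it was -1.48 (edgeR adjusted p = 0.0170). The call was lost without doxycycline replicate 2 (-2.09, adjusted p = 0.0907), without doxycycline replicate 3 (-2.15, adjusted p = 0.0780) and with no filter on low counts (adjusted p = 0.159). The same held with the GC and length offsets (-1.79, adjusted p = 0.0667) and with the replicate block (-2.05, adjusted p = 0.0505). Trib3, a pseudokinase that restrains ATF4 and CHOP activity, had 29.8, 44.0 and 53.9 CPM in doxycycline replicates 1, 2 and 3, against 111, 112 and 110 CPM in untreated replicates 1, 2 and 3. The untreated libraries were nearly equal, with a coefficient of variation of 0.906%, and the doxycycline libraries spread by 28.5%, replicate 1 again lowest. Its log2 fold change was -1.38 (SE 0.19).

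Asns and Nupr1 differed less. Asns, which makes asparagine from aspartate and is a standard readout of the amino acid response, fell to 126, 130 and 113 CPM in doxycycline replicates 1, 2 and 3, against 176, 160 and 169 CPM in untreated replicates 1, 2 and 3. Its log2 fold change was -0.46 (SE 0.08), and the groups were 18.8% apart. Without doxycycline replicate 3 its adjusted p was 0.0650. Nupr1, a small stress-induced chromatin protein, had 45.8, 37.9 and 39.4 CPM in doxycycline replicates 1, 2 and 3, against 53.2, 45.0 and 50.5 CPM in untreated replicates 1, 2 and 3. Doxycycline replicate 1 lay above untreated replicate 2. The log2 fold change of Nupr1, -0.27 (SE 0.12, 95% interval -0.56 to 0.01), was the only one of the 10 whose interval reached 0, and none of 12 alternative fits called it.

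**Figure D2:**
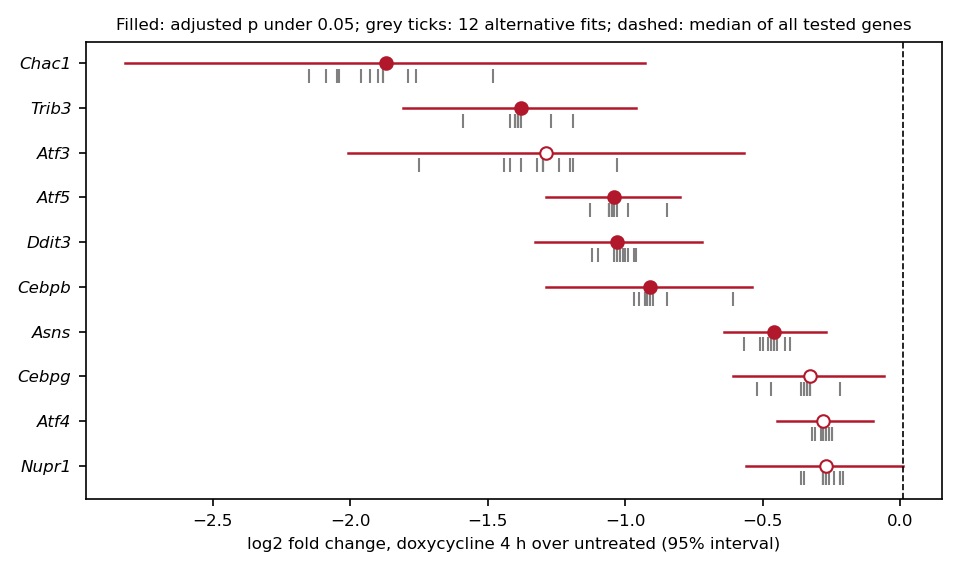
Log2 fold change of each gene, doxycycline 4 h over untreated (horizontal axis), with its 95% interval; filled points passed an adjusted p of 0.05. Values run from -1.87 for Chac1 to -0.27 for Nupr1, all left of the median of all genes tested (dashed, 0.01), and the grey ticks of 12 alternative fits also stay below 0.

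The promoters of the 10 genes were read for the core of the CARE, TGATGNAA, because this is the element through which ATF4 with a C/EBP partner is known to act. Each window runs from 250 bases before to 50 after a RefSeq transcription start on GRCm38.p6, and both strands were searched. A match was found in 5 of the 10 genes, against 324 of the 10921 tested genes that have a window (2.97%) and 3.97% of all 32851 windows. The 10 genes were chosen as genes of the response that acts through this element, so the share among them tests nothing. The stretches below are written 5′ to 3′ on the gene's strand, with the match in capitals and 20 bases on each side. Where the capitals read TTGCATCA or TTACATCA, the element lies on the opposite strand.
Chac1, chr2:119351029-119351076, + strand: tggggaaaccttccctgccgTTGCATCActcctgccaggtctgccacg
Trib3, chr2:152344019-152344066, - strand: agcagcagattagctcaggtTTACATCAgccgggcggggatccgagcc
Atf3, chr1:191183416-191183463, - strand: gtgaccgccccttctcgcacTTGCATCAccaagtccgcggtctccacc
Nupr1, chr7:126625553-126625600, - strand: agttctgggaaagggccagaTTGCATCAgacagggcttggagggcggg
Asns, chr6:7693205-7693252, - strand: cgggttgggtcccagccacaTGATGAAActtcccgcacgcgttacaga

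The position of the match differed from gene to gene. Counted from the start (first transcribed base 1, the base before it -1), it began at -193 in Chac1, at -110 in both Atf3 and Nupr1, at -23 in Asns and at 15, within the transcript, in Trib3. Read as TGATGNAA, the variable base was C in Chac1, Atf3 and Nupr1, T in Trib3 and A in Asns. Atf4, Atf5, Ddit3, Cebpb and Cebpg had no match in these windows. The letters alone did not sort the genes by size of change: those with a match include Chac1 at -1.87 and Nupr1 at -0.27 in log2 fold change, and those without include Atf5 at -1.04 and Atf4 at -0.28. The cyclic AMP response element TGACGTCA was in none of the 10 genes and in 3.37% of tested genes. The CARE core also occurred in 14 of 77 other genes of the pathway lists that have a window (18.2%), in 8.24% of genes called lower and in 2.73% of genes called higher. The genes called lower include Chac1, Trib3 and Asns and genes of the pathway lists, so these shares are not independent of each other. A match is a description of letters and shows no binding.

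The whole window of the glutathione enzyme Chac1 is given, since its difference was the largest with all libraries, though not without doxycycline replicate 1 (GRCm38.p6, chr2:119350992-119351291, + strand), with the single match in capitals.
Chac1 promoter: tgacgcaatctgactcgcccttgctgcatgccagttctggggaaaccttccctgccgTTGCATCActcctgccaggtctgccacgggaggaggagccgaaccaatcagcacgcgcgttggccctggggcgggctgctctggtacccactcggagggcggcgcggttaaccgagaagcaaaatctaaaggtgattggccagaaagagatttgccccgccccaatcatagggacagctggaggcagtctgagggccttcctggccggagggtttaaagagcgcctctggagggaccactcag

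Levels could be compared between genes only per transcript length. After doxycycline the order by mean CPM per kb of main transcript was Atf4 (61.7 ± 2.47, SD, n = 3) and Asns (61.0 ± 4.58), whose libraries overlapped, then Nupr1 (49.5 ± 5.04). Cebpg (26.8 ± 4.69), Ddit3 (26.1 ± 3.02), Trib3 (21.0 ± 5.98) and Atf5 (19.9 ± 1.99) followed, with each neighbouring pair overlapping. Last came Atf3 (10.7 ± 5.28), Chac1 (10.2 ± 5.83) and Cebpb (9.06 ± 0.823), again overlapping. In untreated libraries Asns led at 83.6 ± 3.95 CPM per kb, above Atf4 at 74.7 ± 3.32 with no overlap. Nupr1 (59.8 ± 5.05), Trib3 (54.9 ± 0.497) and Ddit3 (53.2 ± 3.45) overlapped in turn. So did Atf5 (41.1 ± 1.14), Chac1 (37.7 ± 5.37) and Cebpg (33.8 ± 0.552), ahead of Atf3 (26.0 ± 4.19) and Cebpb (17.1 ± 0.466). Trib3 and Chac1 moved down the order after doxycycline and Cebpg moved up. The order depends on the length taken, not least the places of Nupr1 and Ddit3. With the length of all exons, Chac1 would pass Atf5 in untreated libraries (37.7 against 37.5 CPM per kb). After doxycycline Chac1 would pass Atf3 (10.2 against 9.81 CPM per kb). For Nupr1, its main transcript has 829 bases and all its exons 2514, which would give 16.3 CPM per kb after doxycycline and 19.7 in untreated libraries. For Ddit3, with 890 bases in the main transcript and 1713 in all exons, the longer length would give 13.6 CPM per kb after doxycycline and 27.7 in untreated libraries.

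**Figure D3:**
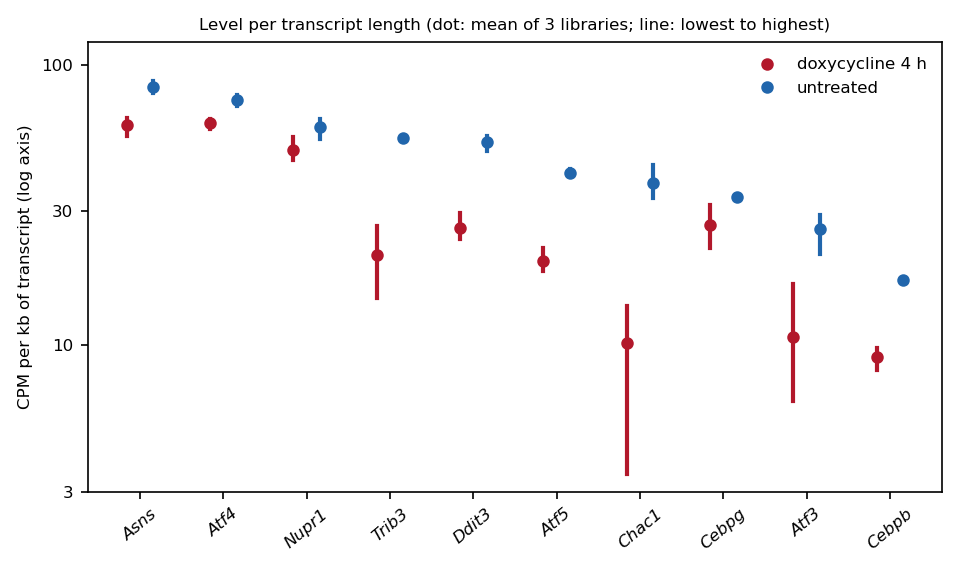
Level per transcript length (vertical log axis, CPM per kb) of each gene in doxycycline (red, left of each pair) and untreated libraries (blue), with dots for the mean of 3 libraries and lines from the lowest to the highest. The widest lines are those of Chac1 and Atf3 after doxycycline, and Asns and Atf4 are at the top in both groups.

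No single doxycycline library carried the difference over all 10 genes. The lowest doxycycline value was in replicate 1 for 4 genes, in replicate 2 for 4 and in replicate 3 for 2. The median log2 ratio of the 10 genes to their untreated mean was -0.86, -0.99 and -0.86 in doxycycline replicates 1, 2 and 3, against 0.04, -0.07 and 0.02 in untreated replicates 1, 2 and 3. Summed over the 10 genes, the level was 521, 574 and 555 CPM in doxycycline replicates 1, 2 and 3, against 895, 843 and 897 CPM in untreated replicates 1, 2 and 3. The muscle markers, whose sums are given above, were highest in doxycycline replicate 2 and lowest in doxycycline replicate 3.

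The lists of other pathway genes were also chosen with earlier results known. Counted once each and without the 10, 107 other pathway genes were tested, of which 44 were lower and 1 higher. Their median was -0.32 on the log2 scale, beside 0.01 for all genes tested, of which 2.18% were lower and 2.84% higher. As for the 10 genes and for all genes tested, the counts in these lists hung on the untreated libraries. Each is given with its values when 1 of these libraries was left out. Among 13 amino acid and one-carbon enzymes, 10 were lower and none higher (median -0.63). Without untreated replicate 1, 2 or 3 the number lower was 2, 3 or 1, and without doxycycline replicate 3 it was 6. The mitochondrial folate enzyme Aldh1l2 fell by 0.87 on the log2 scale, the proline enzyme Pycr1 by 1.03, the alanine transaminase Gpt2 by 0.62 and the folate enzyme Mthfd2 by 0.63. Of 10 amino acid transporters 7 were lower and none higher (median -0.66), with Slc1a4 at -0.96, Slc1a5 at -0.58, the cystine transporter Slc7a11 at -1.04 and the leucine transporter Slc7a5 at -0.74. Without untreated replicate 1, 2 or 3 the transporters called lower numbered 0, 2 or 1. Of 20 cytosolic tRNA synthetases 10 were lower and none higher (median -0.34), with Wars at -0.61, Iars at -0.41, Yars at -0.50 and Aars at -0.42. None of the synthetases was called when any 1 untreated library was left out, and 6 were without doxycycline replicate 3.

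Feedback and secreted factors included the largest decreases in the lists. Of 13 tested, 10 were lower and 1, Klhl24, was higher (0.51), with a median of -0.92. Those called lower numbered 2, 2 or 1 without untreated replicate 1, 2 or 3, and 6 without doxycycline replicate 1 or 3. Gdf15, a stress hormone, fell to 5.00 ± 0.673 CPM after doxycycline, against 27.9 ± 1.82 CPM in untreated libraries (SD, n = 3 each). The leucine sensor Sesn2 had a log2 fold change of -1.46, the liver hormone Fgf21 -2.09 and the mTORC1 inhibitor Ddit4 -0.78. Among 8 targets of CHOP, 2 were lower and none higher (median -0.36). These were Car6, a secreted carbonic anhydrase, at -1.89, and Ppp1r15a, the phosphatase subunit GADD34 that reverses eIF2alpha phosphorylation, at -0.92. The death gene Bbc3 at -0.68 and the oxidase Ero1l at -0.49 did not pass. Called lower were 0, 1 or 1 of the CHOP targets without untreated replicate 1, 2 or 3, 1 without doxycycline replicate 3, and 4 by DESeq2 or without doxycycline replicate 2.

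**Figure D4:**
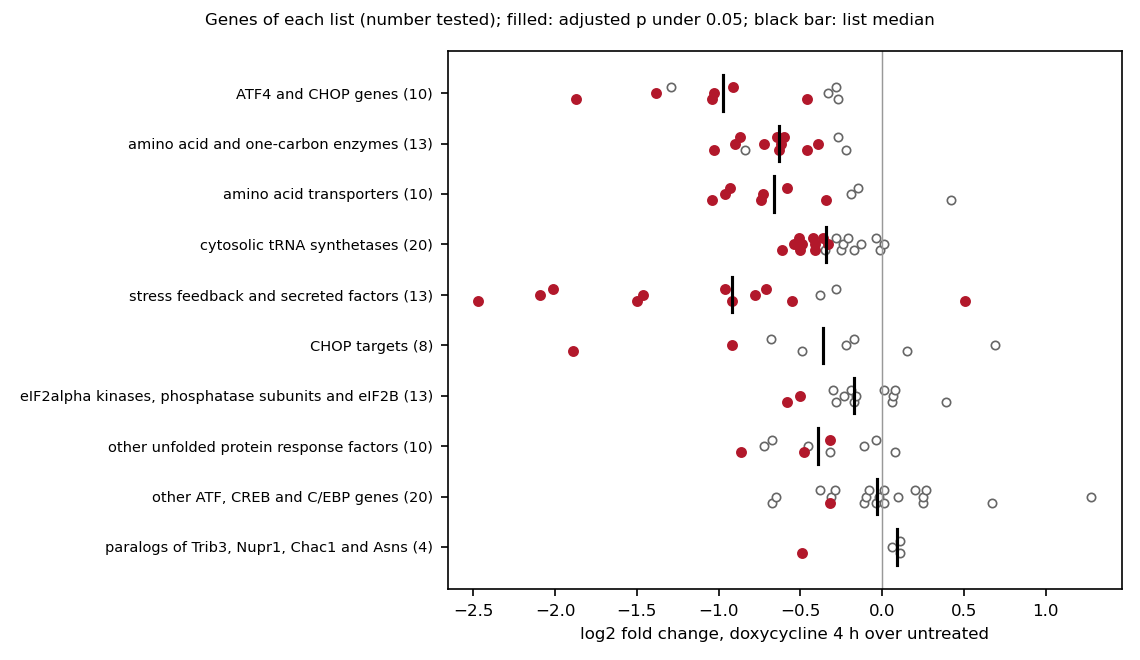
Log2 fold change, doxycycline 4 h over untreated (horizontal axis), of each tested gene in the pathway lists, with filled points past an adjusted p of 0.05 and black bars at list medians. The medians run from -0.97 for the ATF4 and CHOP genes to 0.09 for the paralogs, and Klhl24 is the 1 filled point right of 0.

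The upstream components come next. Of 13 genes for eIF2alpha kinases, phosphatase subunits and eIF2B, 2 were lower and none higher (median -0.17). They were Gcn1l1, which activates the amino acid sensor GCN2, at -0.50 and the exchange factor subunit Eif2b4 at -0.58. Eif2b3, another exchange factor subunit, at -0.30 and the kinase gene Eif2ak2 (PKR) at 0.39 did not pass. The kinase genes Eif2ak3 (PERK, 0.01) and Eif2ak4 (GCN2, 0.06) did not pass. None of the 13 was called when any 1 untreated library was left out, 1 was without doxycycline replicate 3, with the replicate block or with the offsets, and 4 were without doxycycline replicate 2. In the other arms of the unfolded protein response, 3 of 10 genes were lower and none higher (median -0.39): Herpud1 at -0.48, Sdf2l1 at -0.86 and the sensor Atf6 at -0.32. Atf6b, a relative of Atf6, at -0.67 and the chaperone Hspa5 (BiP) at -0.11 did not pass. The 3 calls became 0 without any 1 untreated library, without doxycycline replicate 3 or with the replicate block, and 1 without doxycycline replicate 1. They became 6 without doxycycline replicate 2 and 7 by DESeq2.

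Relatives of the 10 genes were listed too. Of 20 other ATF, CREB and C/EBP genes tested, 1 was lower, Atf6, and none higher (median -0.03), beside 2.18% of all tested genes called lower, and nothing is read from 1 call. Cebpa, the C/EBP factor of mature hepatocytes, was at 0.01 (SE 0.24) and Cebpd at -0.65 (SE 0.26). Atf2 was at 0.20 (SE 0.08), Creb1 at 0.10 (SE 0.08) and Jdp2, a repressor close to Atf3, at -0.38 (SE 0.13). Of the rest, Atf6b (-0.67), Crem (-0.31), Batf3 (-0.29), Atf1 (-0.11), Cebpz (-0.10), Creb3l2 (-0.08), Creb5 (-0.04) and Creb3 (-0.02) had negative log2 fold changes. Those of Atf7 (0.01), Creb3l3 (0.25), Creb3l4 (0.25), Batf2 (0.27), Batf (0.67) and Creb3l1 (1.28, SE 0.74) were positive. Apart from Atf6, none of these relatives passed, and Cebpe was too low to be tested. Among the paralogs of the downstream genes, Trib1 was lower at -0.49. The calls of Atf6 and Trib1 were lost without any 1 untreated library, without doxycycline replicate 3 and with the replicate block, and that of Trib1 also without doxycycline replicate 1. Trib2 was at 0.11 (SE 0.22), Chac2, which also degrades glutathione, at 0.11 (SE 0.21) and Asnsd1 at 0.06 (SE 0.13), none of which passed. These values stand beside -1.38 for Trib3, -1.87 for Chac1 and -0.46 for Asns; the differences between paralogs were not tested.

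The genes whose pattern over the 6 libraries was most like the mean standardised profile of the 10 were taken from 2245 others with a mean of at least 5 CPM and at least 2 times between the highest and lowest library. The closest 10 by Pearson's r were Dgat2 (0.996), Gdf15 (0.995), Itprip (0.991), Angptl6 (0.991), Prdm8 (0.986), Terc (0.985), Ddit4 (0.980), Il11 (0.978), Soat2 (0.975) and Slc1a7 (0.975). Of these, Gdf15 and Ddit4 are in the pathway lists. Dgat2, which makes triglyceride, had 31.8 ± 2.09 CPM after doxycycline and 63.2 ± 2.34 CPM in untreated libraries (SD, n = 3 each). All 10 had negative log2 fold changes, from -2.47 to -0.78. The profile is mostly the contrast between the groups, so r over 6 libraries describes that contrast and carries no p. Of the 10 genes themselves, Cebpb followed the mean of the other 9 most closely (r = 0.991) and Nupr1 least (r = 0.744).

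Features of the counts touch some of the 10 genes. Between the deepest and the shallowest untreated library, whose totals differed by 1.23 times, counts of abundant genes rose less than those of rarer genes. The median ratio was 1.25 where a gene held 0.05 to 0.1 reads per base, and 1.11 where it held over 1. This is 1 pair of libraries, so depth and other differences between them cannot be told apart. Atf4 (1.09 reads per base in untreated libraries) and Asns (1.22) belong to the abundant class. Whether fold changes in that class are understated was not tested. The ratio between those libraries was 1.10 for Atf4 and 1.09 for Asns. Single genes scatter around the class medians: less abundant members of the 10 had ratios from 0.919 (Atf3) to 1.29 (Chac1). On opposite strands, exons of Cebpb share 312 bases with Tmem189, those of Atf5 82 bases with Nup62 and Il4i1, and those of Ddit3 68 bases with Mars, in the GENCODE annotation used. The library kit does not mark strand, so reads from such stretches cannot be assigned to a strand.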

How the data were processed

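The authors' deposited table holds raw read counts per gene symbol, made with TopHat2 2.0.8, TopHat and HTSeq with build mm9, as named without roles per the submitters' processing notes. Libraries were made from RNA depleted of ribosomal RNA with the TruSeq RNA kit v2, per the labels' protocols. The treatment of multiply mapped and duplicate reads is not given in those notes. The 90 rows with no gene name (0.0361% to 0.0402% of counts) were left out. Counts were tested in R 4.3.3 with edgeR 4.0.16 (filterByExpr, TMM, robust glmQLFit, glmQLFTest, two-sided, Benjamini-Hochberg over 14809 genes, threshold 0.05), after the steps had been tested on simulated data. Alternatives used DESeq2 1.42.0 and limma 3.58.1. Lengths and GC content came from GENCODE M21, promoters from RefSeq (both GRCm38); no coordinates were converted. Pairs of replicates gave chi-square values above sampling noise, of 5.17 to 8.28 per degree of freedom among untreated libraries. Among doxycycline libraries the value was 12.4 for replicates 1 and 3. The pairs of doxycycline replicate 2 with replicates 1 and 3 gave 29.2 and 29.8. Groups came from sample titles. The 10 genes and all lists were chosen with earlier results of these data known. Named are the 10 genes, up to 4 genes per list by smallest p, family relatives and the 10 most similar patterns. The kinases PERK and GCN2, Hspa5, Klhl24, Gpc3, Alb, Hnf4a, Krt8, Krt18, Sox9 and Ttn were added after their values were seen. Library totals were 12090309 to 16169043 counts.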

Additional observations from a re-analysis of the deposited data

How the results depend on the processing

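The 10 genes kept negative log2 fold changes in all 12 alternative fits. Their median, -0.97 as reported, was -0.73 with offsets for GC content and length, which gave 295 higher and 379 lower calls over all genes (43.8% higher, beside 56.6% as reported). The number of the 10 called lower, 6 as reported, ranged from 0 to 8 when 1 library was left out, and was 8 by DESeq2, 7 by limma-voom, 5 with no filter and 4 with the offsets. At 0 called, without untreated replicate 1, 8 of the 10 had an unadjusted p under 0.05 in edgeR, as had 2414 of all 15261 genes tested there; nothing is read from this. Over all genes 744 were called, and 1667 by DESeq2. With 1 library left out, the number ran from 23 (without untreated replicate 1) to 2110 (without doxycycline replicate 2). With the replicate block 394 were called, 5 of the 10 genes among them. The numbers were not taken as pairs, since the labels do not say that equal numbers share an animal or a day. Deviations from the group mean had r from -0.089 to -0.001 between same-numbered libraries of the groups. Between differently numbered ones r ran from -0.171 to 0.149. With 3 libraries per group these values cannot settle whether the numbers are pairs. The cause of the shifts between the fits was not tested. Each alternative called Atf5 except the one without untreated replicate 1 (adjusted p = 0.0516).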
